A study of Mus musculus with 12 samples.

Results

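Described here are 10 genes whose proteins bind inflammatory mRNAs and set how long those mRNAs last: Zc3h12a, Arid5a, Zfp36, Zfp36l1, Zfp36l2, Elavl1, Rc3h1, Rc3h2, Hnrnpd and Khsrp. They are the 10 of the 48709 genes in the count table that carry these symbols, and the list was drawn up with earlier results of these data known. Their mRNAs were measured by RNA sequencing in mouse embryonic fibroblasts, connective tissue cells grown from E12.5–13.5 embryos, here wild type C57BL/6. The cells were transfected with a control siRNA or an siRNA against IMP2, an RNA-binding protein and reader of N6-methyladenosine encoded by Igf2bp2. At 24 h after transfection the medium was replaced, and IL-17, an inflammatory cytokine, was added at 200 ng/mL for 8 h or left out. The 4 groups of 3 libraries are therefore siControl, siControl_IL17, siIMP2 and siIMP2_IL17, all transfected. The labels name 1 IMP2 siRNA treatment and no second, independent siRNA, and they do not state that replicate libraries were grown as separate cultures. The p-values below thus measure only how far these libraries scatter, and part of that scatter may be technical.

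Inflammatory mRNAs often carry adenine- and uridine-rich elements (AREs) or small stem-loops in their 3′ untranslated regions (UTRs), and proteins that bind these elements decide between decay and persistence. Regnase-1, the product of Zc3h12a, is an endonuclease that cuts stem-loop mRNAs, and the roquins (Rc3h1, Rc3h2) bind the same kind of stem-loop and recruit deadenylases. Tristetraprolin (Zfp36) and its relatives (Zfp36l1, Zfp36l2) bind AREs and recruit the CCR4-NOT deadenylase, Khsrp promotes ARE decay, and Hnrnpd (AUF1) mostly does. Arid5a and HuR (Elavl1) oppose decay, Arid5a by competing with Regnase-1 and HuR by occupying AREs. In fibroblasts IL-17 acts in part through stabilisation of chemokine and cytokine mRNAs, and Regnase-1 and Arid5a are known negative and positive regulators of that response.

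Library depth was 33841054 to 44433699 exon counts, so that 1 CPM (read count scaled by library size, the unit of level used here) stood for 31.9 to 50.9 reads. Each group holds 2 libraries whose titles begin with NA (replicates 1 and 2) and 1 whose title begins with RB160 (replicate 3). The labels do not say what these prefixes mean, and the RB160 libraries stood apart: 69.5% of the 13702 genes tested differed between the title sets. The title set was therefore a term of every model, and the values of both sets are given. The targeted gene followed the labels, with Igf2bp2 under the control siRNA at 149 ± 17.1 CPM unstimulated and 154 ± 13.5 CPM stimulated, and under the IMP2 siRNA at 21.9 ± 3.01 and 23.6 ± 4.90 CPM (SD, n = 3 each). Of 16 fibroblast markers 15 averaged above 1 CPM over the 12 libraries, and their summed CPM ranged from 33540 to 35885 in the siControl, 28584 to 33933 in the siControl_IL17, 37788 to 40842 in the siIMP2 and 31659 to 37822 in the siIMP2_IL17 libraries. The fibroblast markers also differed between the title sets. Of 15 tested, 9 were higher and 4 lower in the RB160 libraries at an edgeR adjusted p under 0.05. Among the higher were Lum (log2 difference 3.94), Dcn (2.81) and Pdgfra (2.78). Lum averaged 1.08 CPM and was at 0 in its lowest library. The largest parts of the sum were Fn1 and Col1a1, at means of 13749 and 9407 CPM. Of 7 macrophage markers 2 averaged above 1 CPM, at a summed 3.93 to 6.21 CPM over all libraries, and Adgre1 and Tyrobp were at 0. Endothelial, epithelial and erythroid markers summed to at most 1.5, 3.36 and 0.0941 CPM.

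Several members carry in their own mRNA the elements that these proteins bind. The sequences below show this, read from GENCODE 3′ UTRs on GRCm38 (mm10), each as 30 bases of the gene's strand. The first 5 hold a hairpin with at least 6 perfect base pairs around a loop of pyrimidine, purine and pyrimidine, the form that Regnase-1 and roquins are known to bind, with the loop in capitals. The last 3 hold the nonamer TTATTTATT, a core ARE, in capitals.
Zc3h12a stem-loop 1, chr4:125119061-125119090, minus strand: ccctgttgatacaCATtgtatctctgtcat
Zc3h12a stem-loop 2, chr4:125118879-125118908, minus strand: gctagttaggcacCATgtgcctgctctctg
Zc3h12a stem-loop 3, chr4:125118655-125118684, minus strand: ggcgagatttaaaTATtttaaatgaaaaag
Rc3h1 stem-loop 3, chr1:160971653-160971682, plus strand: agccaataacttcTGTgaagttgccttttc
Rc3h2 stem-loop 1, chr2:37373801-37373830, minus strand: tttaattaacttcTGTgaagttgtttactc
Zfp36 nonamer, chr7:28376950-28376979, minus strand: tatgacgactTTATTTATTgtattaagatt
Zfp36l1 nonamer, chr12:80108166-80108195, minus strand: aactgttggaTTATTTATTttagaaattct
Zfp36l2 nonamer, chr17:84184913-84184942, minus strand: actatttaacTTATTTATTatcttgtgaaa

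The Zc3h12a 3′ UTR held 3 such stem-loops in 856 bases and no TTATTTATT. Rc3h1 held 4 matches of this form in 7181 bases of 3′ UTR, of which the first and second overlap in an AT repeat. Rc3h2 held 1 match in 5331 bases and the other 7 members held none, and at least 1 was in 9.97% of the 3′ UTRs of 12675 tested genes (median length 1199 bases). Rc3h1 and Rc3h2, paralogs on different chromosomes, shared 1 stem-loop letter for letter over its 15 bases of stem and loop, and those 15 bases were found in 2 of the 3′ UTRs searched. The nonamer was in 8.30% of those 3′ UTRs and in 6 of the 10 members: once in each of the 3 tristetraprolin family members, Rc3h1 and Rc3h2, and 8 times in Elavl1, where most matches overlap another. Arid5a, Hnrnpd, Khsrp and Zc3h12a held none. A match is a description of the letters and shows no binding, and long 3′ UTRs have more chances to hold one.

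For Zc3h12a, the member called for IL-17 with each siRNA, the 250 bases before the RefSeq start are printed as well, on GRCm38.p6, with matches to the GC box GGGCGG on either strand in capitals.
Zc3h12a promoter, chr4:125127882-125128131, minus strand: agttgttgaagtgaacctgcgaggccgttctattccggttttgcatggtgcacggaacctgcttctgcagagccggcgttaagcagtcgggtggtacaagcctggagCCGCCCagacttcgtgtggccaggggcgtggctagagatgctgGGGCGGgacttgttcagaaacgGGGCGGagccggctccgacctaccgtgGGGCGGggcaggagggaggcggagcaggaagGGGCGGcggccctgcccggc

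This Zc3h12a promoter window was 66.4% G and C and held 5 GC boxes. Neither an NF-kB-like motif (GGGANTTTC) nor a C/EBP-like motif (TTGCNNAA), AP-1 site (TGANTCA), CRE (TGACGTCA) or TATA box (TATAAA) was in it on either strand. Of the 10 members 9 had a RefSeq promoter in the table used, and 6 of these held a GC box, as did 32.7% of 32851 promoters. An AP-1 site was in the Zfp36l1 and Rc3h1 windows (6.75% of all promoters), a C/EBP-like motif in that of Rc3h2 (9.56%) and a TATA box in that of Zfp36l1 (12.4%). The NF-kB-like motif (0.941%) and the CRE (1.55%) were in no member's window.

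All 10 members were expressed and passed the filter on low counts. Set side by side per length, as CPM per kilobase of exon averaged over the 12 libraries, Zfp36l2 was the most abundant at 91.0 (range 76.8 to 113), apart from every other member. Khsrp at 39.1 (32.9 to 42.9) and Zfp36l1 at 33.4 (20.1 to 47.3) followed with overlapping ranges. Hnrnpd at 18.9 (14.6 to 25.6), Zfp36 at 16.5 (11.9 to 20.9) and Elavl1 at 16.4 (14.6 to 17.4) also overlapped one another. The deposited exon length of Zfp36 equals its gene length, 3470 bases, so its level per length may be too low. Zc3h12a averaged 11 and had the widest range of the 10, from 1.97 to 20.2 or 10.2-fold, which crossed the ranges of all other members but Zfp36l2 and Khsrp.

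**Figure D1:**
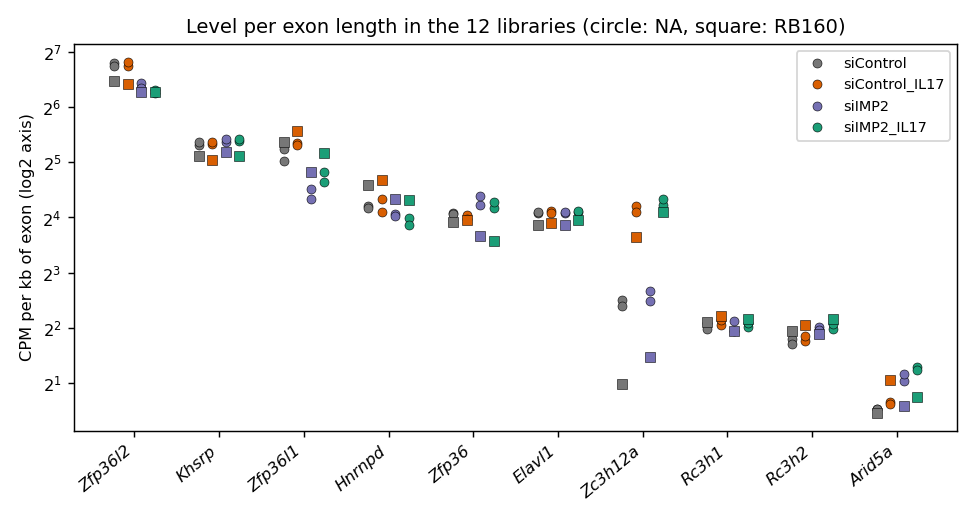
Level of each of the 10 members in each of the 12 libraries, as CPM per kilobase of exon on a log2 axis, ordered by mean; colours give the group and symbols the title set. Zfp36l2 lies above all others, Arid5a lies below all but the lowest Zc3h12a value, and Zc3h12a spreads from 1.97 to 20.2.

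The roquins lay at the low end, with Rc3h1 at 4.21 (3.83 to 4.62) and Rc3h2 at 3.83 (3.25 to 4.45) overlapping each other. Arid5a was lowest at 1.81 CPM per kilobase (1.37 to 2.44), below every roquin value. Elavl1 varied least over the libraries (1.20-fold between its lowest and highest), followed by Rc3h1 (1.21-fold) and Khsrp (1.30-fold).

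Regnase-1 was the member called for IL-17 with each siRNA. Zc3h12a (ENSMUSG00000042677, chr4:125118423-125127840, minus strand, mm10) was at 16.4, 15.1 and 5.68 CPM in the 3 siControl libraries and at 53.0, 49.2 and 35.9 CPM in the siControl_IL17 libraries. With the IMP2 siRNA it was at 18.3, 16.1 and 7.97 CPM without and 54.2, 58.2 and 49.6 CPM with IL-17. Every stimulated library was above every unstimulated one, and the third library of each group, the RB160 one, was the lowest of its group.

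In the edgeR quasi-likelihood fit over all 12 libraries with Benjamini-Hochberg adjustment, used for every adjusted p below unless another tool is named, Zc3h12a rose 3.91-fold with the control siRNA (log2 change 1.97 ± 0.20 SE, adjusted p = 0.000737). With the IMP2 siRNA it rose 4.06-fold (log2 change 2.02 ± 0.20, adjusted p = 0.000499). By p it ranked 4 among 13702 genes in both comparisons, where 0.423% and 0.511% of genes were called (0.255% and 0.343% as higher). It was the 1 member of 10 called in each. Without the title set term neither call was made, at log2 changes of 1.90 (adjusted p = 1) and 1.94 (adjusted p = 0.72) for Zc3h12a. The share of all genes called without that term was not counted. Summed fibroblast markers reached lower values with IL-17 (given above), and averaged over both siRNAs 3 of 15 tested were lower and 1 higher. Their part in the result was not tested. In bulk RNA a change in the share of cells that express a gene and a change in RNA per cell cannot be told apart.

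**Figure D2:**
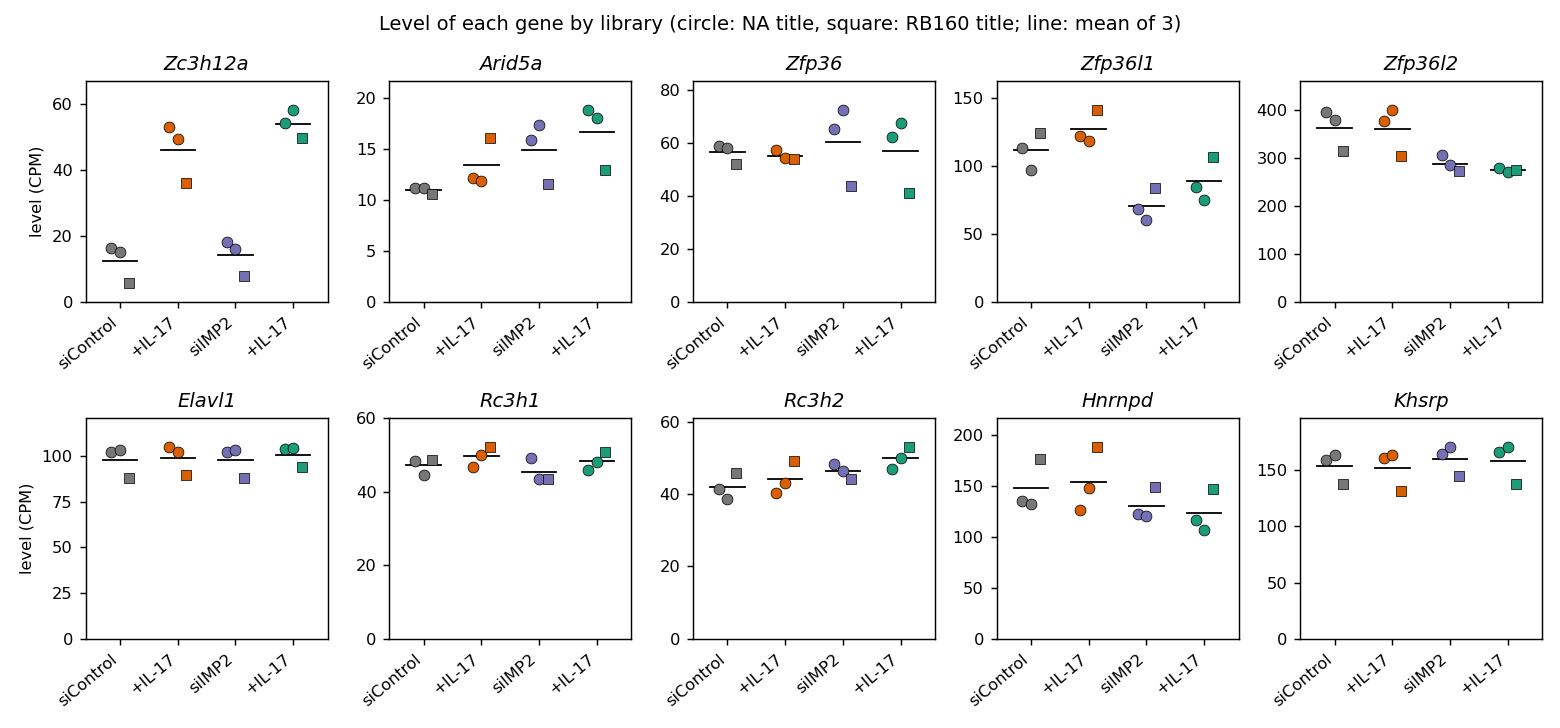
CPM of each member in the 12 libraries, 1 panel per gene with its own axis from 0; circles are NA and squares RB160 libraries, and the line is the mean of the 3 libraries of a group. Zc3h12a separates stimulated from unstimulated libraries, Zfp36l1 and Zfp36l2 separate the siRNAs, and in Zfp36 and Arid5a the squares and circles part with the IMP2 siRNA.

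The size of the Zc3h12a response did not differ detectably between the siRNAs. The difference of the log2 responses (IMP2 siRNA minus control) was 0.05 ± 0.27 with a 95% interval from -0.54 to 0.65. True differences within that interval are not excluded by these libraries. For this difference edgeR called no member and 0 of 13702 genes (0%), while 0 members and 152 genes were below an unadjusted p of 0.05, and DESeq2 also called 0 genes. The IMP2 siRNA itself left Zc3h12a at log2 differences of 0.21 ± 0.20 without IL-17 (adjusted p = 0.462) and 0.26 ± 0.18 with it (adjusted p = 0.288), neither called. With only the groups compared in the edgeR fit the latter was called (adjusted p = 0.0332).

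Arid5a (ENSMUSG00000037447, chr1:36307733-36324029, plus strand), the opponent of Regnase-1, was at 11.2, 11.1 and 10.5 CPM in siControl and 12.2, 11.8 and 16.1 CPM in siControl_IL17. It was at 15.8, 17.4 and 11.5 CPM in siIMP2 and 18.8, 18.1 and 12.9 CPM in siIMP2_IL17. The siControl and siControl_IL17 libraries did not overlap, which was also so for 5.12% of all genes and, among the members, for Zc3h12a. The IL-17 difference was not called with either siRNA, at log2 values of 0.31 ± 0.16 (adjusted p = 0.521) and 0.15 (adjusted p = 0.974). With the IMP2 siRNA and IL-17, Zc3h12a was the only member whose groups did not overlap with IL-17 (4.89% of all genes).

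Arid5a differed between the siRNAs mainly in the NA libraries. Without IL-17 its siIMP2 libraries were all above its siControl libraries, yet the log2 difference of 0.43 ± 0.16 missed the threshold by edgeR (adjusted p = 0.0583). It passed with DESeq2 (adjusted p = 0.0322), with no filter (0.0147), with only the groups compared (0.0167) and with the NA libraries alone (0.00066). With IL-17 the difference was 0.28 ± 0.16 (adjusted p = 0.203) and had opposite signs in the sets, 0.62 in the NA and -0.32 in the RB160 libraries. Averaged over both stimulus states, a comparison that called 49.5% of all genes, Arid5a was called as higher with the IMP2 siRNA (0.36 ± 0.11, adjusted p = 0.0205). That call was lost without siControl_IL17 replicate 1 (adjusted p = 0.0584), siControl_IL17 replicate 2 (0.0575), siIMP2 replicate 2 (0.0542) or siIMP2_IL17 replicate 1 (0.0512). Without siControl_IL17 replicate 3, on the other hand, Arid5a was called in the comparison without IL-17 (adjusted p = 0.00636) and in the one with IL-17 (0.00303). The former was also called without siIMP2 replicate 3 (0.0239) or siIMP2_IL17 replicate 3 (0.035).

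Among the tristetraprolin family, 2 of 3 members were lower with the IMP2 siRNA and the founding member was not called. Zfp36l1 (ENSMUSG00000021127, chr12:80107760-80113013, minus strand) was at 113, 97.0 and 124 CPM in siControl and 68.7, 60.0 and 84.1 CPM in siIMP2. With IL-17 it was at 122, 119 and 141 CPM in siControl_IL17 and 84.9, 74.9 and 107 CPM in siIMP2_IL17. In both states every siIMP2 library was below every siControl library.

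Zfp36l1 fell to 0.633 of its control level without IL-17 (log2 difference -0.66 ± 0.08, adjusted p = 4.46e-05) and to 0.694 with it (-0.53 ± 0.08, adjusted p = 0.000227). In these comparisons 32.9% and 33.4% of all genes were called, 16.7% and 16.7% as lower and 16.1% and 16.7% as higher. Of the 10 members 3 were called in each, Zfp36l1, Zfp36l2 and Hnrnpd, all lower, so the share of members called was close to that of all genes. The summed fibroblast markers were higher in siIMP2 than in siControl without IL-17 and overlapped with it (given above). Marker by marker, 8 of 15 tested were lower and 3 higher with the IMP2 siRNA in each state, at medians of -0.46 and -0.31. Among the lower ones were Pdgfra (-2.23 and -2.31), Dcn (-2.65 and -2.83), Prrx1 (-0.89 and -0.93) and Pdgfrb (-0.50 in both). The part of these marker changes in the members' results was not tested. The groups did not overlap for 3 members without IL-17 (18.7% of all genes), Zfp36l1, Zfp36l2 and Arid5a, and for 2 with IL-17 (18.8%), Zfp36l1 and Zfp36l2.

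Zfp36l2 (ENSMUSG00000045817, chr17:84183931-84187947, minus strand) was at 394, 379 and 314 CPM in siControl and 306, 285 and 272 CPM in siIMP2. With IL-17 it was at 377, 400 and 303 CPM in siControl_IL17 and 279, 271 and 274 CPM in siIMP2_IL17. The siRNA groups were apart in both states, by less in the RB160 libraries, whose log2 differences were -0.21 and -0.15 against -0.39 and -0.50 in the NA libraries. Zfp36l2 fell by 0.33 ± 0.07 on the log2 scale without IL-17 (adjusted p = 0.00365) and by 0.38 ± 0.07 with it (adjusted p = 0.00137).

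Zfp36 (ENSMUSG00000044786, chr7:28376784-28380253, minus strand), the gene of tristetraprolin, was at 59.1, 58.2 and 52.1 CPM in siControl and 57.4, 54.5 and 53.8 CPM in siControl_IL17. It was at 65.2, 72.6 and 43.9 CPM in siIMP2 and 62.4, 67.8 and 41.1 CPM in siIMP2_IL17. Without the IMP2 siRNA the 6 values lay close together, and with it the NA libraries were higher and the RB160 libraries lower than any of those 6. After 8 h of IL-17 the log2 difference was -0.02 with the control siRNA (95% interval -0.28 to 0.23, adjusted p = 0.968) and -0.09 with the IMP2 siRNA (adjusted p = 0.996). Between the siRNAs it was 0.08 ± 0.12 without IL-17 (adjusted p = 0.658) and 0.01 with it (adjusted p = 0.945).

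The makeup of this family, as shares of its summed CPM per kilobase, was led by Zfp36l2 in every group, at 65.6 ± 3.89% (siControl), 63.3 ± 4.91% (siControl_IL17), 66.4 ± 1.07% (siIMP2) and 62.8 ± 0.664% (siIMP2_IL17; SD, n = 3). Zfp36l1 made up 24.0 ± 4.03%, 26.8 ± 4.42%, 19.4 ± 3.96% and 24.0 ± 4.09% in the same order, and Zfp36 10.4 ± 0.268%, 9.93 ± 0.566%, 14.2 ± 3.24% and 13.3 ± 3.43%. The Zfp36 shares rest on an exon length equal to the gene length. They may thus be too low, and those of the other 2 too high. The family's summed level was 156 ± 10.6 and 161 ± 10.5 CPM per kilobase with the control siRNA, and 123 ± 5.44 and 124 ± 2.37 with the IMP2 siRNA. The sum was thus lower with the IMP2 siRNA by more than the SDs, while IL-17 moved it by less than 1 SD with the control siRNA.

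Zfp36l1 also had the second largest IL-17 difference among the members with the IMP2 siRNA, 0.32 ± 0.08 on the log2 scale (adjusted p = 0.114), against 0.19 ± 0.08 with the control siRNA (adjusted p = 0.374). Neither passed, and the difference between them was 0.13 ± 0.11 (95% interval -0.11 to 0.37). Averaged over both siRNAs, where 2.72% of genes were called and 1.31% as higher, 2 members were called, Zc3h12a (1.99 ± 0.14, adjusted p = 1.04e-05) and Zfp36l1 (0.26 ± 0.05, adjusted p = 0.0248), both higher. The averaged Zfp36l1 value was 0.26 in the NA and 0.27 in the RB160 libraries. The Zfp36l1 call was lost, with adjusted p from 0.0524 to 0.0748, on leaving out any 1 of 7 libraries: siControl replicate 2 or 3, siControl_IL17 replicate 1 or 2, siIMP2 replicate 2 and siIMP2_IL17 replicate 1 or 3.

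**Figure D3:**
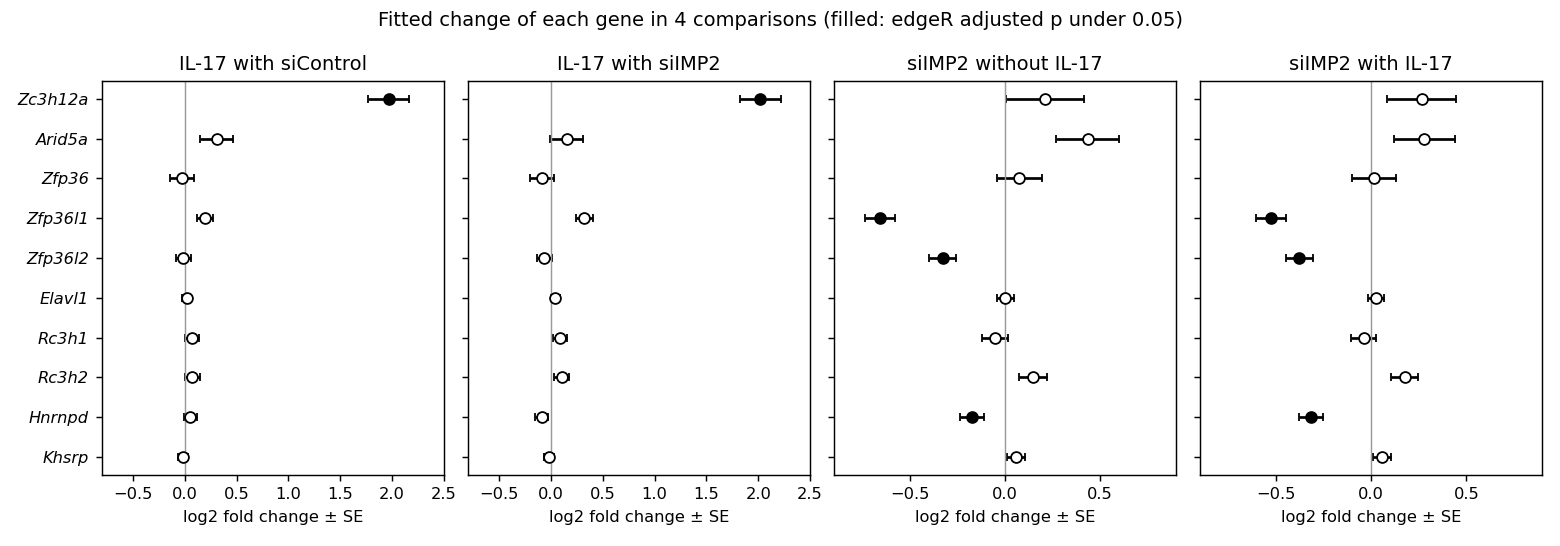
Log2 change of each member with its standard error in the 4 comparisons of the groups; filled points have an edgeR adjusted p under 0.05. Zc3h12a stands at 1.97 and 2.02 for IL-17, and Zfp36l1, Zfp36l2 and Hnrnpd lie below 0 for the IMP2 siRNA in both states.

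Hnrnpd (ENSMUSG00000000568, chr5:99955935-99978938, minus strand), which encodes AUF1, was the third member lower with the IMP2 siRNA. It was at 135, 132 and 177 CPM in siControl and 122, 120 and 149 CPM in siIMP2. With IL-17 it was at 126, 148 and 189 CPM in siControl_IL17 and 116, 107 and 147 CPM in siIMP2_IL17. The RB160 library was the highest of each group, so the siRNA groups overlapped in CPM while each title set by itself was lower with the IMP2 siRNA.

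With IL-17 Hnrnpd fell by 0.32 ± 0.06 on the log2 scale (adjusted p = 0.00211). Without IL-17 it fell by 0.18 ± 0.06 (adjusted p = 0.0496), a call at the threshold. The latter was lost, with adjusted p from 0.0526 to 0.222, on leaving out any 1 of 10 of the 12 libraries, and was kept without siControl_IL17 replicate 1 or siControl_IL17 replicate 2. It was also lost with uniquely mapped reads (-0.15, adjusted p = 0.108). Those reads were counted over the whole gene and so include reads outside exons. The parts of mapping and of reads outside exons in that loss were not tested. IL-17 left Hnrnpd at log2 differences of 0.05 (adjusted p = 0.818) and -0.09 (adjusted p = 0.903).

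HuR and Khsrp, the ARE binders of opposite effect, were among the steadiest members. Elavl1 (ENSMUSG00000040028, chr8:4285382-4325413, minus strand) was at 102, 103 and 88.1 CPM unstimulated and 105, 102 and 89.7 CPM stimulated with the control siRNA, and at 102, 103 and 87.8 CPM and 104, 104 and 93.6 CPM with the IMP2 siRNA. Its log2 difference between the siRNAs without IL-17 was 0.00 with a 95% interval from -0.09 to 0.10 (adjusted p = 0.997), and no comparison of the groups called it. Khsrp (ENSMUSG00000007670, chr17:57021058-57031507, minus strand) was at 154 ± 13.8, 152 ± 18.0, 160 ± 13.4 and 158 ± 18.2 CPM (SD, n = 3) in the same order, and was not called in any of these comparisons. For both, the RB160 library was the lowest of each group.

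The roquins did not pass in any of the 4 comparisons. Rc3h1 (ENSMUSG00000040423, chr1:160906418-160974978, plus strand) was at 47.1 ± 2.29, 49.6 ± 2.78, 45.3 ± 3.38 and 48.2 ± 2.37 CPM in that order. Rc3h2 (ENSMUSG00000075376, chr2:37370069-37422903, minus strand) was at 42.0 ± 3.53, 44.3 ± 4.50 and 46.4 ± 2.06 CPM in the first 3 groups and at 46.9, 49.9 and 53.2 CPM in the siIMP2_IL17 libraries. The Rc3h1 share of their summed CPM per kilobase was 54.2 ± 1.19% and 54.2 ± 1.21% with the control siRNA and 50.8 ± 1.06% and 50.4 ± 0.354% with the IMP2 siRNA, while the sum was between 7.68 ± 0.480 and 8.45 ± 0.472.

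Rc3h2 differed between the siRNAs by 0.15 ± 0.07 without IL-17 (adjusted p = 0.136) and 0.18 ± 0.07 with it (adjusted p = 0.0742). On the average over both states it was called as higher (0.16 ± 0.05, adjusted p = 0.0179), as 24.1% of all genes were. That call was lost without siIMP2 replicate 1 (adjusted p = 0.0509), while without siIMP2 replicate 3 both single comparisons were called (adjusted p = 0.0178 without and 0.0303 with IL-17). In all, the average called 5 members: Arid5a and Rc3h2 higher, and Zfp36l1 (-0.59 ± 0.05, adjusted p = 2.08e-06), Zfp36l2 (-0.35 ± 0.05, adjusted p = 8.32e-05) and Hnrnpd (-0.25 ± 0.05, adjusted p = 0.000586) lower, where 25.3% of all genes were lower. Their share again was close to the 49.5% of all genes.

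With the NA libraries alone, 5 members were called without IL-17 and 6 with it. Those added were Arid5a (0.57 and 0.61), Rc3h2 (0.23 and 0.21) and Zfp36 (0.23 and 0.21), all higher with the IMP2 siRNA, while Hnrnpd was not called without IL-17 (-0.15, adjusted p = 0.181). The share of all genes called with the NA libraries alone was not counted, so the 5 and 6 cannot be set against it.

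As a list, the members differed little in the median. Their median log2 difference was 0.06 for IL-17 under the control siRNA and 0.07 under the IMP2 siRNA, where the median of all genes was -0.01 in both. For the IMP2 siRNA it was 0.03 without IL-17 and 0.02 with it, beside -0.00036 and -0.01 over all genes. The median size of the difference, sign left aside, was 0.16 and 0.22 for the members and 0.19 and 0.20 for all genes.

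More members differed between the title sets than with either treatment: between the RB160 and NA libraries 7 of 10 were called. This share was close to the 69.5% of all genes called in that comparison. Zc3h12a (-0.72 ± 0.15, adjusted p = 0.000719), Zfp36 (-0.38 ± 0.09, adjusted p = 0.00197), Khsrp (-0.26 ± 0.04, adjusted p = 2.43e-05), Elavl1 (-0.20 ± 0.03, adjusted p = 0.000122) and Zfp36l2 (-0.19 ± 0.05, adjusted p = 0.00584) were lower in RB160 on the log2 scale, as were 34.6% of all genes. Hnrnpd (0.39 ± 0.05, adjusted p = 7.89e-06) and Zfp36l1 (0.32 ± 0.06, adjusted p = 0.000252) were higher, as were 34.9%. Arid5a, Rc3h1 and Rc3h2 were not called.

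The responses differed between the sets for 3 members. The Zc3h12a response to IL-17 was a log2 change of 1.70 in the NA and 2.64 in the RB160 libraries, and this difference of 0.94 ± 0.10 was called (adjusted p = 0.00254), as was that of 0.307% of all genes. The direction was the same in both sets, and the lower unstimulated level in RB160 libraries, 5.68 and 7.97 CPM against 15.1 to 18.3 CPM, moved with it. The effect of the IMP2 siRNA differed for Arid5a (0.59 in NA, -0.09 in RB160, difference -0.70 ± 0.12, adjusted p = 0.00524) and Zfp36 (0.22 in NA, -0.32 in RB160, difference -0.54 ± 0.09, adjusted p = 0.00275), with opposite signs in the sets. Here 6.58% of all genes were called.

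Since each group holds 1 RB160 library, these differences rest on 4 libraries. The Zc3h12a call was lost on leaving out any of them: siControl replicate 3 (0.93, adjusted p = 0.112), siControl_IL17 replicate 3 (0.93, 0.117), siIMP2 replicate 3 (0.97, 0.077) or siIMP2_IL17 replicate 3 (0.96, 0.0826). The Arid5a call was lost without siControl_IL17 replicate 3 (-0.44, adjusted p = 0.28) or siIMP2_IL17 replicate 3 (-0.44, adjusted p = 0.282). The Zfp36 call was lost without siControl replicate 3 (-0.60, adjusted p = 0.0504), siControl_IL17 replicate 3 (-0.48, 0.14) or siIMP2_IL17 replicate 3 (-0.48, 0.144). The sizes of the Zc3h12a and Zfp36 differences stayed near the full values, and fewer libraries entered each fit. What sets the NA and RB160 libraries apart was not tested.

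**Figure D4:**
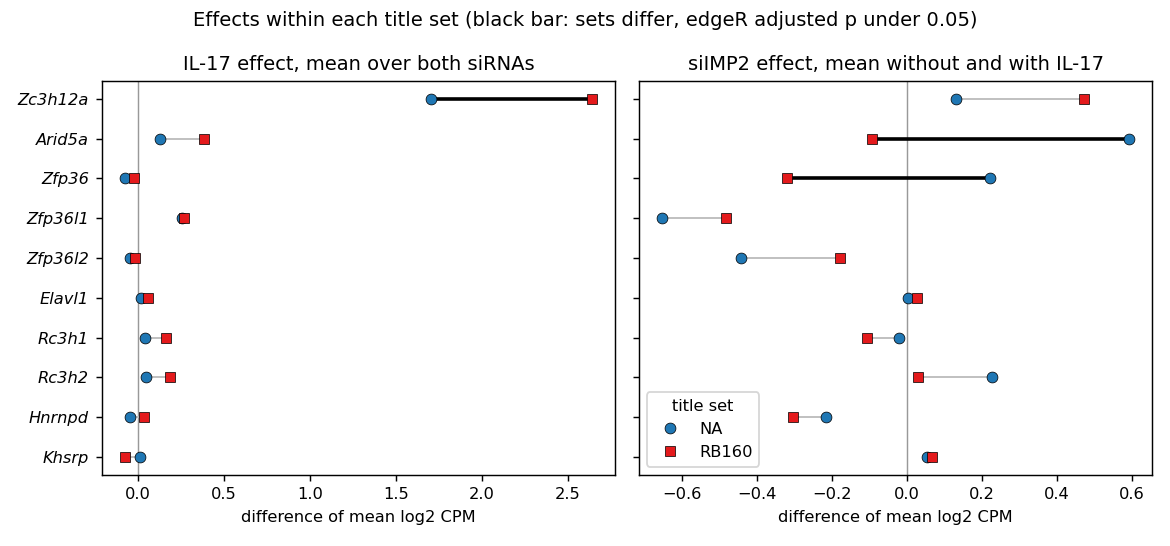
Effect of IL-17 and of the IMP2 siRNA on each member within the NA libraries and within the RB160 libraries, as log2 changes joined by a line; a black line means that the sets differed at an adjusted p under 0.05. The joined points part most for Zc3h12a under IL-17 (1.70 and 2.64) and lie on opposite sides of 0 for Arid5a and Zfp36 under the IMP2 siRNA.

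Reads that fell inside a gene but outside its exons, mostly from introns and so from RNA not yet spliced, could be counted apart from the deposited files and made up 4.49 to 6.42% of gene reads, with the highest shares in the RB160 libraries given IL-17 (6.42 and 6.28%). Zc3h12a had 96, 77 and 53 such reads in siControl and 134, 127 and 184 in siControl_IL17, then 92, 93 and 81 in siIMP2 and 124, 106 and 223 in siIMP2_IL17. In reads, every stimulated library was above every unstimulated one. The fitted log2 changes were 0.68 ± 0.17 with the control siRNA (adjusted p = 0.106) and 0.69 ± 0.16 with the IMP2 siRNA (adjusted p = 0.109), smaller than the 1.97 and 2.02 in exons and not called. By edgeR 0 of the 9 members tested outside exons were called for IL-17 with either siRNA, where 0.225% and 0.112% of 12463 genes were, and 3 members were below an unadjusted p of 0.05 in each. Averaged over both siRNAs, Zc3h12a was called outside exons as the 1 member of 9 (0.68 ± 0.12, adjusted p = 0.00218), where 0.931% of genes were called and 0.586% as higher. With single libraries left out that adjusted p ranged from 0.00108 to 0.0148. The part of the RB160 share of such reads in these values was not tested. The Zc3h12a value with the control siRNA became a call without siIMP2_IL17 replicate 3 (adjusted p = 0.0283) and that with the IMP2 siRNA without siControl replicate 3 (adjusted p = 0.0403). The difference between exon and outside-exon changes was not tested.

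Outside exons, Zfp36l1 was lower with the IMP2 siRNA as it was in exons. Gm26669, a gene on the opposite strand, overlaps Zfp36l1 over 4967 of its 5254 bases. The use of strand is not given, so these reads may include RNA of Gm26669. Uniquely mapped reads were not fitted for reads outside exons alone. Zfp36l1 had 239, 165 and 315 reads outside exons in siControl and 99, 81 and 283 in siIMP2, then 288, 284 and 703 in siControl_IL17 and 144, 108 and 433 in siIMP2_IL17. Within each title set the siIMP2 libraries were lower, and the RB160 libraries were the highest of their groups. It fell by 0.85 ± 0.17 on the log2 scale without IL-17 (adjusted p = 0.000936) and by 0.86 ± 0.15 with it (adjusted p = 0.000385), where 4.89% and 4.67% of genes were called as lower and 10.8% and 10.7% in all.

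AC132455.1, a gene on the opposite strand, overlaps Zfp36l2 over 2192 of its 4017 bases, so reads outside exons may include its RNA. Zfp36l2 had 262, 272 and 236 reads outside exons in siControl and 195, 187 and 203 in siIMP2. It fell by 0.51 ± 0.12 on the log2 scale without IL-17 (adjusted p = 0.00475), a call that was lost without siIMP2 replicate 2 (-0.41, adjusted p = 0.0568), and was at -0.25 ± 0.12 with IL-17 (adjusted p = 0.208). Averaged over both states, 2 of 9 members were called outside exons, Zfp36l1 (-0.85 ± 0.11, adjusted p = 2.97e-06) and Zfp36l2 (-0.38 ± 0.08, adjusted p = 0.0015), both lower, where 22.2% of genes were called and 11% as lower. Hnrnpd was at 0.00 ± 0.11 in both comparisons outside exons (adjusted p = 0.989 and 0.997), where its exon values were -0.18 and -0.32. Zfp36 could not be tested, since its annotated exons cover the whole gene in the deposited files and 0 to 3 reads per library fell outside them.

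**Figure D5:**
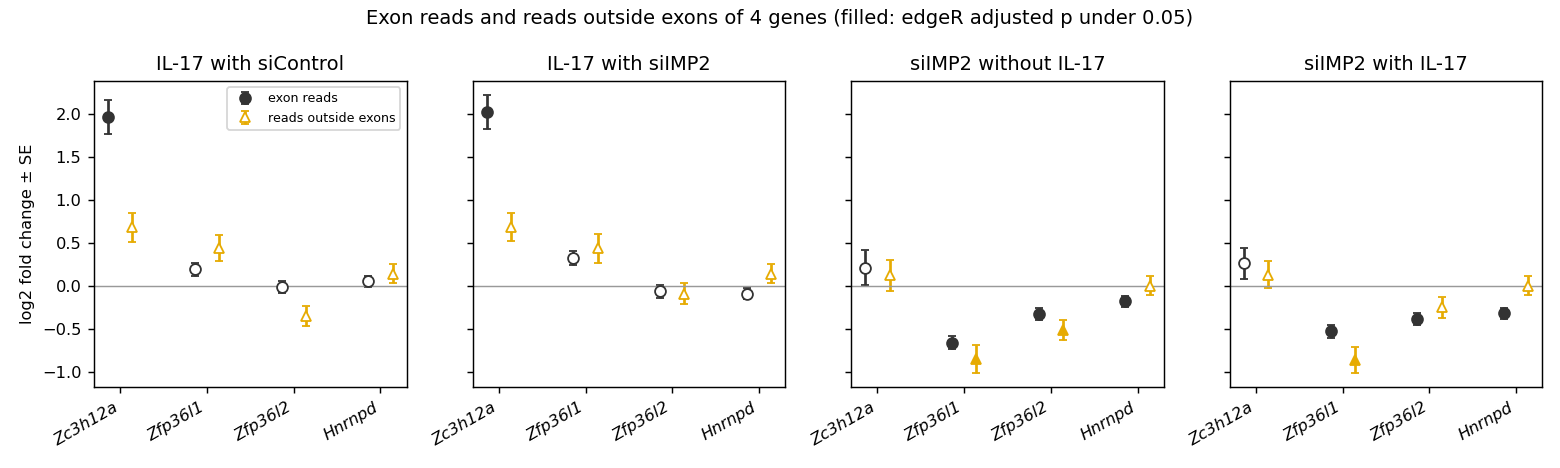
Log2 change with its standard error from exon reads and from reads outside exons for Zc3h12a, Zfp36l1, Zfp36l2 and Hnrnpd in the 4 comparisons of the groups. For IL-17 the Zc3h12a change is 1.97 and 2.02 in exons and 0.68 and 0.69 outside them; with the IMP2 siRNA Zfp36l1 lies below 0 in both kinds of read.

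Some member counts share sequence or position with other genes, and the use of strand is not given in the sources used here. Uniquely mapped reads made up 16.9 to 20.2% of the Zfp36l1 reads, 70.8 to 81.8% of those of Zfp36l2, 94.9 to 99.4% for Hnrnpd and at least 99.2% for the other members. These shares and the fits of uniquely mapped reads cover the whole gene, in and outside exons. Of the 50-base stretches in Zfp36l1 transcripts 54.4% also occur in Gm26669, a long noncoding gene on the opposite strand that overlaps it, or in the pseudogene Zfp36l1-ps. Gm26669 itself was listed with 2 to 86 reads. With uniquely mapped reads alone the Zfp36l1 differences for the IMP2 siRNA were -0.67 (adjusted p = 4.73e-05) and -0.51 (0.000346), and those of Zfp36l2 -0.32 (0.00706) and -0.35 (0.00434). Zfp36l2 overlaps AC132455.1, a gene on the opposite strand without counts here, over 2192 of its 4017 bases. Elavl1 overlaps Ccl25 on the opposite strand over 204 bases and Khsrp overlaps Gm17949 over 63. Zfp36 overlaps Gm44710 and Hnrnpd overlaps Gm17092, also on the opposite strand. Reads in all those stretches cannot be assigned to a strand here.

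The genes whose log2 CPM followed each member most closely over the 12 libraries, after subtraction of the title set means and among 10635 genes, are given with Pearson's r as a description. All share the same libraries and treatments. Zc3h12a was nearest to Ier3, Itpripl2 and Lrig1 (0.98 each). Zfp36l1 was nearest to Abcc4 and Dram1 (0.99) and Cd47 (0.98), and Zfp36l2 to Sema3c, Slc1a3 and Nap1l4 (0.99 each). Arid5a was nearest to Bnip3 (0.98), Pfkl and Kdm3a (0.96 each). Hnrnpd was nearest to Rpa3 and Map3k1 (0.97), Rc3h2 to Ublcp1 (0.97), Khsrp to Tbc1d25 (0.97), Rc3h1 to Fam208a (0.91), Zfp36 to Decr1 (0.90) and Elavl1 to Trappc4 (0.88). Between members the closest pairs were Zfp36l1 with Zfp36l2 (0.83) and Zfp36l2 with Hnrnpd (0.82), and Arid5a ran opposite to Zfp36l2 (-0.83).

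No gene of the decay machinery that these proteins recruit, or of the upstream pathways listed, was called for IL-17 with either siRNA alone. Over all genes only 0.423% and 0.511% were called there, so lists of these sizes with none called are close to that share. None of the 4 tested Regnase relatives and partners, 19 other 3′ UTR binding proteins, 18 CCR4-NOT and PAN deadenylase genes, 18 decapping genes, 14 exosome genes or 24 upstream kinases, adaptors and ligases passed with either siRNA by edgeR or DESeq2. Over these lists 6 genes with the control siRNA and 3 with the IMP2 siRNA were below an unadjusted p of 0.05 by edgeR. Averaged over both siRNAs 1 of the 24 upstream genes was called, the kinase gene Ikbke (0.28 ± 0.07, adjusted p = 0.0433). In that comparison 2.72% of all genes were called and 1.31% as higher. With the IMP2 siRNA, of the other 3′ UTR binding proteins 8 of 19 were lower and 0 higher without IL-17, and 11 lower and 0 higher with it, at medians of -0.12 and -0.19 where 16.7% of all genes were lower. With single libraries left out the lower count ranged from 4 to 8 and from 6 to 11. Pcbp1, a poly(C)-binding protein, fell by 0.62 ± 0.08 and 0.66 ± 0.08 on the log2 scale (adjusted p = 0.000122 and 6.83e-05), Fmr1, which encodes the fragile X protein, by 0.49 ± 0.08 and 0.43 ± 0.08 (0.000679 and 0.00149), and Hnrnpa0 by 0.37 ± 0.07 in both (0.000981 and 0.00091).

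Among the deadenylase genes 4 were higher and 3 lower without IL-17, and 3 higher and 4 lower with it. Over all genes 16.1% were higher and 16.7% lower without IL-17 and 16.7% each with it. The decapping, exosome, upstream and target counts for the IMP2 siRNA that follow are to be read against these shares. Cnot6, a catalytic subunit of CCR4-NOT, fell by 0.48 ± 0.05 and 0.52 ± 0.05 (adjusted p = 3.38e-05 and 1.89e-05), while the adaptors Tob2 (0.26 and 0.28) and Btg2 (0.35 and 0.37) rose. Of 18 decapping genes 3 were lower in each state and 1 and 0 higher, led by Dcp2, the decapping enzyme, which fell by 0.81 ± 0.07 and 0.72 ± 0.07 (adjusted p = 4.49e-06 and 1.06e-05). Of 14 exosome genes 3 were lower and 0 higher in each state, and without IL-17 the count of 3 ranged from 0 to 3 with single libraries left out. N4bp1, an RNA-cleaving relative of Regnase-1, rose by 0.19 ± 0.05 and 0.20 ± 0.05 (adjusted p = 0.0121 and 0.00967).

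Of the 24 upstream genes 9 were higher and 3 lower with the IMP2 siRNA without IL-17, and 6 higher and 4 lower with it; with single libraries left out the higher count ranged from 4 to 9 and from 3 to 7. Dusp1, a phosphatase that ends p38 signalling and whose mRNA is itself an ARE target, rose by 0.68 ± 0.08 and 0.64 ± 0.08 (adjusted p = 3.43e-05 and 5.58e-05). Btrc, a subunit of the ligase that marks Regnase-1 for degradation, fell by 0.35 ± 0.06 and 0.32 ± 0.06, and Srsf1 fell by 0.26 ± 0.06 and 0.32 ± 0.06.

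The mRNAs that these proteins are reported to act on included genes that rose with IL-17 and genes that differed between the siRNAs. The 3 target lists overlap, with 9 genes shared by the Regnase-1 or roquin list and the tristetraprolin list and 7 by the former and the Arid5a list, and the first holds Zc3h12a itself. The lists were chosen with earlier results of these data known, so their counts are a description. Of 18 tested Regnase-1 or roquin targets 7 rose with IL-17 under the control siRNA and 6 under the IMP2 siRNA and none fell, at median log2 changes of 0.89 and 0.70 where all genes had -0.01. Zc3h12a, already described, is among both the 7 and the 6. Over all genes 0.255% and 0.343% were called as higher for IL-17 with the control and the IMP2 siRNA. The IL-17 counts of the other target lists below are to be read against the same shares. With single libraries left out these counts ranged from 3 to 9 and from 3 to 8. Nfkbiz, a cofactor of IL-17 target genes, rose by 2.05 ± 0.12 and 2.30 ± 0.12 (adjusted p = 4.35e-06 and 1.41e-06), and the chemokine Cxcl1 by 2.65 ± 0.20 and 3.15 ± 0.24 (6.17e-05 and 5.2e-05).

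With the IMP2 siRNA 4 of these 18 targets rose and 7 fell without IL-17, and 3 rose and 7 fell with it, where 16.1% of all genes were higher and 16.7% lower without IL-17 and 16.7% each with it. Gadd45b, a stress-response gene, rose by 1.02 ± 0.06 and 0.87 ± 0.06 and the amino acid transporter gene Slc7a1 by 0.63 ± 0.08 and 0.50 ± 0.08, while Cxcl1 fell by 2.77 ± 0.24 without IL-17 and fell by 2.27 ± 0.20 with it. Of 18 tested tristetraprolin targets 5 and 3 rose with IL-17 (from 1 to 7 and from 1 to 6 with single libraries left out), and with the IMP2 siRNA 7 rose and 5 fell without IL-17, and 6 rose and 5 fell with it. Csf3, the G-CSF gene, rose by 3.17 ± 0.36 and 2.47 ± 0.31 and the immediate early gene Fos fell by 1.31 ± 0.17 and 1.22 ± 0.17.

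Of 9 tested mRNAs that Arid5a is reported to stabilise, 6 fell with the IMP2 siRNA without IL-17 and 7 with it, and none rose, at medians of -1.5 and -1.31. Stat3, an Arid5a target in T cells, fell by 0.95 ± 0.06 and 0.98 ± 0.06 (adjusted p = 5.49e-07 and 4.66e-07), and Il6 by 1.89 ± 0.47 and 2.25 ± 0.37 (adjusted p = 0.00762 and 0.000569). Under IL-17, 4 of these 9 rose with the control siRNA and 3 with the IMP2 siRNA, where the counts ranged from 2 to 5 in each with single libraries left out. Arid5a mRNA itself was at 0.43 and 0.28 in these comparisons, with the calls given above. Whether these mRNAs were bound by any of the proteins was not measured.

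In the authors' deposited table Zc3h12a had log2 fold changes of 1.90 (adjusted p = 4.36e-05) and 1.94 (1.53e-05) for IL-17 under the control and the IMP2 siRNA, and no other member was below 0.05 in any of its 4 comparisons. The headers of these comparisons call the control Mock where the sample labels say siControl. Both names were taken here to mean the same libraries. Zfp36l1 was at -0.65 (0.194) for the IMP2 siRNA without IL-17 in the authors' deposited table, close in size to the -0.66 of the edgeR fit with the title set as a term.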

How the data were processed

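RNA was sequenced from 12 libraries, 3 in each of 4 groups taken from the labels. The deposited counts are whole-number exon reads per gene, not normalised, and per the file headers the reads were paired and trimmed. Per the submitters' processing notes they were placed on mm10. For aligner, counter and strand setting nothing is given in the sources used here. The deposited RPKM values were not used, and per-length levels were computed from counts and the deposited exon lengths. The deposited log2 fold changes and p-values (FDR-adjusted, per the file headers) are the authors' own, and their test is not stated there.

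The count model was an edgeR 4.0.16 fit (R 4.3.3) with TMM factors, filterByExpr (minimum count 10, minimum total 15), quasi-likelihood dispersion, all 12 libraries, and group and title set as terms. P-values of the 13702 genes that passed the filter were adjusted by Benjamini-Hochberg and called under 0.05. Differences between the title sets came from a model with title set interactions. Reads outside exons (total minus exon reads per gene) were fitted in the same way over 12463 genes, and uniquely mapped reads over 14310. The uniquely mapped reads were those of the whole gene, in and outside exons. CPM are counts scaled by library size and TMM factors, and log2 CPM used a prior count of 2. The counts of the 12 per-library files equalled those of the series table. Between the NA libraries of a group counts differed by more than sampling noise (chi-square per degree of freedom 9.01 to 16.8). The fit's common biological coefficient of variation was 7.95%.

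Alternatives were DESeq2 1.42.0, limma-voom (limma 3.58.1), other scaling factors and filters, a robust fit, no title set term, NA libraries alone, only the groups compared, uniquely mapped reads, and each library left out in turn. The alternatives for the averages, the differences of responses between the title sets, the reads outside exons and the gene lists were chosen after seeing the data. The members and lists were chosen with earlier results of these data known. Named genes are the members, up to 4 called genes of smallest p per list and comparison, and for each member the 3 genes of highest correlation. The 3′ UTRs came from the GENCODE mouse annotation and promoters from RefSeq, with 9 of 10 members matched there. The edgeR steps were tested on simulated counts that held no title set effect. How the fit performs with such an effect was not tested. Tables and figures were made in Python 3.11.15 (pandas 2.3.3, matplotlib 3.10.9).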

Additional observations from a re-analysis of the deposited data

Results flagged for a closer look

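The response of 3 members differed between the title sets by a test of the difference itself, in the edgeR model with title set interactions and Benjamini-Hochberg adjustment over all genes. The Zc3h12a response to IL-17 was larger in the RB160 than in the NA libraries by 0.94 on the log2 scale (adjusted p = 0.00254), in the same direction. The effect of the IMP2 siRNA on Arid5a differed by -0.70 (RB160 minus NA, adjusted p = 0.00524), and that on Zfp36 by -0.54 (adjusted p = 0.00275), each with opposite signs in the sets. Each call was lost on leaving out 1 or another RB160 library, of which each group holds 1.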

How the results depend on the processing

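No paired analysis was possible because the labels give libraries of different groups no shared replicate number, animal, culture or day. The title prefix that they share is a term of the model. The main limits are the title sets, of which RB160 has 1 library per group, the unknown strand, and multiply mapped reads of Zfp36l1. Without the title set term the number of members called was 0 for IL-17 under the control siRNA, 0 for it under the IMP2 siRNA, 0 for the IMP2 siRNA without IL-17, 0 for it with IL-17, 0 for the average IL-17 response and 2 for the average siRNA effect. With the NA libraries alone it was 5 for the IMP2 siRNA without IL-17, 6 with IL-17 and 1 for the average IL-17 response. The share of all genes called was not counted for the NA libraries alone or without the title set term. Nor was it counted for only the groups compared, uniquely mapped reads or no filter, which follow. The counts of members under these alternatives therefore cannot be set against it. With only the groups compared the number of members called was 5 for the IMP2 siRNA with IL-17 and 2 for IL-17 with the IMP2 siRNA, as it was for the latter with DESeq2 (2) and no filter (2), the second gene being Zfp36l1. Uniquely mapped reads gave 1 for the average IL-17 response. No filter gave 4 for the title set difference of the siRNA effect, and outside exons 2, 1 and 2 for IL-17 under the control siRNA, under the IMP2 siRNA and on average, counted over Zc3h12a, Zfp36l1, Zfp36l2 and Hnrnpd.

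With single libraries left out the count ranged from 1 to 2 for the average IL-17 response, from 0 to 1 for the title set difference of the IL-17 response and from 0 to 3 for that of the siRNA effect. It ranged from 1 to 1 for IL-17 with each siRNA, from 2 to 4 for the IMP2 siRNA without IL-17, from 3 to 4 with it and from 4 to 5 on average. Outside exons the count was taken over Zc3h12a, Zfp36l1, Zfp36l2 and Hnrnpd alone, not over the 9 members tested there. It ranged from 0 to 1 for IL-17 with each siRNA, from 1 to 2 for the average IL-17 response and from 1 to 2 for the IMP2 siRNA without IL-17. The count for the difference of the IL-17 responses was 0 under every alternative run.

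Over all genes edgeR called 58 and 70 for IL-17 with the control and the IMP2 siRNA and 373 on average, and DESeq2 called 197, 170 and 651.

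No called member value changed sign under any alternative run. Values near 0 that did were Elavl1 for the IMP2 siRNA without IL-17 (-0.0041 with NA libraries alone, -0.00089 with only the groups compared, -0.0041 with uniquely mapped reads), Khsrp for IL-17 with NA libraries alone (0.0093 and 0.013), Zfp36l2 for IL-17 under the control siRNA and NA libraries alone (0.0077), and Hnrnpd outside exons for the IMP2 siRNA with IL-17 and RLE factors (-0.0031). The cause was not tested.

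With single libraries left out, log2 differences that changed sign ranged, for IL-17 with the control siRNA, from -0.035 to 0.0027 for Khsrp, from -0.18 to 0.074 for Zfp36 and from -0.064 to 0.058 for Zfp36l2. For IL-17 with the IMP2 siRNA they ranged from -0.038 to 0.0040 for Khsrp and from -0.20 to 0.029 for Zfp36. For the IMP2 siRNA without IL-17 they ranged from -0.0082 to 0.018 for Elavl1, from -0.13 to 0.016 for Rc3h1, from -0.033 to 0.37 for Zc3h12a and from -0.013 to 0.20 for Zfp36. With IL-17 they ranged from -0.023 to 0.40 for Zc3h12a and from -0.065 to 0.16 for Zfp36. Outside exons they ranged from -0.070 to 0.10 and from -0.083 to 0.077 for Hnrnpd, and from -0.098 to 0.28 and from -0.16 to 0.25 for Zc3h12a, the unstimulated comparison first in each pair. Between the siRNAs the Zc3h12a responses differed by values from -0.24 to 0.29.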
